A study of Mus musculus with 25 samples.

Results

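MT elements are a branch of the mammalian apparent LTR retrotransposons (MaLR), and they were taken here as the repeat copies that the counted annotation places in the class LTR/ERVL-MaLR under a name beginning with MT. There were 92061 such copies among 1755056 repeat copies counted, in 20 subfamilies, and the 84486 copies on autosomes were summed by subfamily and scaled to the reads on genes. The LTR subfamilies (MTA_Mm, MTB, MTB_Mm, MTC, MTD, MTE2a, MTE2b, MTEa and MTEb) are the terminal repeats, and those ending in -int are the internal parts between them. The name MT2_Mm belongs to the LTR of MERVL, another family, and is not a member.

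The RNA came from two-cell mouse embryos pooled in lots of 5 to 10, in 25 libraries of 11 groups, and was collected at 28 to 29 h. IVF embryos (4 libraries) came from C57BL/6N oocytes and DBA2 sperm. Embryos from somatic cell nuclear transfer (SCNT) came from BDF1 oocytes that had lost their own nucleus and received the nucleus of a BDF1 cumulus cell, so the strain of the oocyte cannot be told apart from the way the embryo was made. One set was made with cytochalasin B, as untreated controls (SCNT cont, 2 libraries) or with injected *Kdm3a* or *Kdm4d* mRNA at 1500 ng/µL (2 each), which encode demethylases of histone H3 lysine 9. The other set is labelled LatA, for latrunculin A. It comprised controls (LatA cont, 2), embryos with trichostatin A (TSA), an inhibitor of histone deacetylases, for 8 h at 25 nM (2), embryos with an inhibitor of the histone methyltransferase G9a for 24 h at 1 µM, namely A366 (2) or RK-701 (3, R701 in the labels), and embryos with TSA and A366, RK-701 or UNC0638 (2 each). All embryos are labelled wild type.

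MaLR elements encode no protein of their own and are copied with the enzymes of other elements. In mouse oocytes, MT LTRs are known as promoters and first exons of many transcripts, and MT RNA is abundant among the transcripts that the oocyte stores and the embryo degrades. At the two-cell stage the embryonic genome is activated, and MERVL then becomes one of the most abundant repeats.

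To show what an MT element looks like at the start of a gene, 4 windows of RefSeq (build GRCm38.p6), each with 250 bases before and 50 bases after an annotated start, are printed with the bases of the MT copy in capitals. They were chosen after the values were seen, and the rule was changed once, since a first choice gave windows whose copies had few or no reads. The rule used took, for each of the letters MTA to MTE, up to 2 windows of counted genes with a copy of at least 100 reads across the start on the same strand, and added windows that MTA_Mm-int overlaps at any place with as many reads. *Slx4ip* (chr2:136899101-136899400, plus strand) holds 252 bases of an MTA_Mm LTR, *Adh5* (chr3:138436950-138437249, plus strand) 260 bases of an MTB_Mm LTR, Gm13777 (chr2:91031226-91031525, minus strand) lies wholly in an MTB_Mm LTR, and Gm34369 (chr5:76776529-76776828, minus strand) holds 228 bases of MTA_Mm-int. These starts are those of RefSeq. The nearest gene start in GENCODE M21 lies 86 bases from the copy for Gm13777, 5729 for *Adh5*, 7760 for *Slx4ip*, where it is that of *Mkks*, and 34088 for Gm34369, where it is that of Gm7494.
Slx4ip: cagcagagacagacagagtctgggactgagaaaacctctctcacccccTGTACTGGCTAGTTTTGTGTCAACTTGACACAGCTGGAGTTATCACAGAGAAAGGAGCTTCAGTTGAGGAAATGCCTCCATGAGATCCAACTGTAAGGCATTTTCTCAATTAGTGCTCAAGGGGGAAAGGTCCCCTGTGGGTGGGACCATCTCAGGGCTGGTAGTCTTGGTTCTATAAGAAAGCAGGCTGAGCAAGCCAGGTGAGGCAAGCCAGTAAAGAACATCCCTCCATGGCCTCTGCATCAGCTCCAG
Adh5: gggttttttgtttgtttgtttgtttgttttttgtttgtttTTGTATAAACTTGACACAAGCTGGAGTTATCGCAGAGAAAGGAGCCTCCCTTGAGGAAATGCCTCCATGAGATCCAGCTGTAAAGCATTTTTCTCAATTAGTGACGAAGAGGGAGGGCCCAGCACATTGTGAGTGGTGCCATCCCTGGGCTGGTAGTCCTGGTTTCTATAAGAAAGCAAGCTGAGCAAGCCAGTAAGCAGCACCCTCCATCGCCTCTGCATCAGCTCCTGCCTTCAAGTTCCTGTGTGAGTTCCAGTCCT
Gm13777: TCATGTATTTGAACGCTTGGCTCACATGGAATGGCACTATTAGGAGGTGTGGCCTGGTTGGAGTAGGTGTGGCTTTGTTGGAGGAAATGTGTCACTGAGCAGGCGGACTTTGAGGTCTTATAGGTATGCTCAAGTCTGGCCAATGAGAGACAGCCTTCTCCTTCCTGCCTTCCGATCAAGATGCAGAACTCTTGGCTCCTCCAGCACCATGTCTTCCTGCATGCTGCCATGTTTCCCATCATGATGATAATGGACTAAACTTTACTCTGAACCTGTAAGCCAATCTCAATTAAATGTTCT
Gm34369: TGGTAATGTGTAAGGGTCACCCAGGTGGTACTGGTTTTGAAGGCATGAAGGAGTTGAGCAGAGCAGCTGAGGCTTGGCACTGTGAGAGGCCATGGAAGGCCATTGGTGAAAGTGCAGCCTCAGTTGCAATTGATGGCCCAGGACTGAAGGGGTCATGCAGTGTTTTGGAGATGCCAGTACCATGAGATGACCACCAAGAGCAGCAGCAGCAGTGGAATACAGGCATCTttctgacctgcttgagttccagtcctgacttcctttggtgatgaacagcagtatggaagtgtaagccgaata
An MT copy lay across the annotated start on the same strand in 68 of 31396 windows. The letters TATAAA, searched on both strands, occurred in 9 of the 68 windows (13.2%) and in 13.6% of all windows. AATAAA, searched in the same way, occurred in 18 of the 68 (26.5%) and in 19.6% of all.

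MTA_Mm-int supplied most of the MT reads. Of 4653156 read pairs on autosomal MT copies in all libraries, 60.9% lay on its 2550 copies and 19.9% on the 13303 copies of MTA_Mm, its LTR. Per megabase of summed copy length, MTA_Mm-int averaged 3812 CPM (read pairs on the copies, scaled to the reads on genes), MT-int 872 and MTA_Mm 603. Each of the other 17 subfamilies lay between 59.3 (MTEb-int) and 252 (MTB_Mm-int) on that scale.

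**Figure D1:**
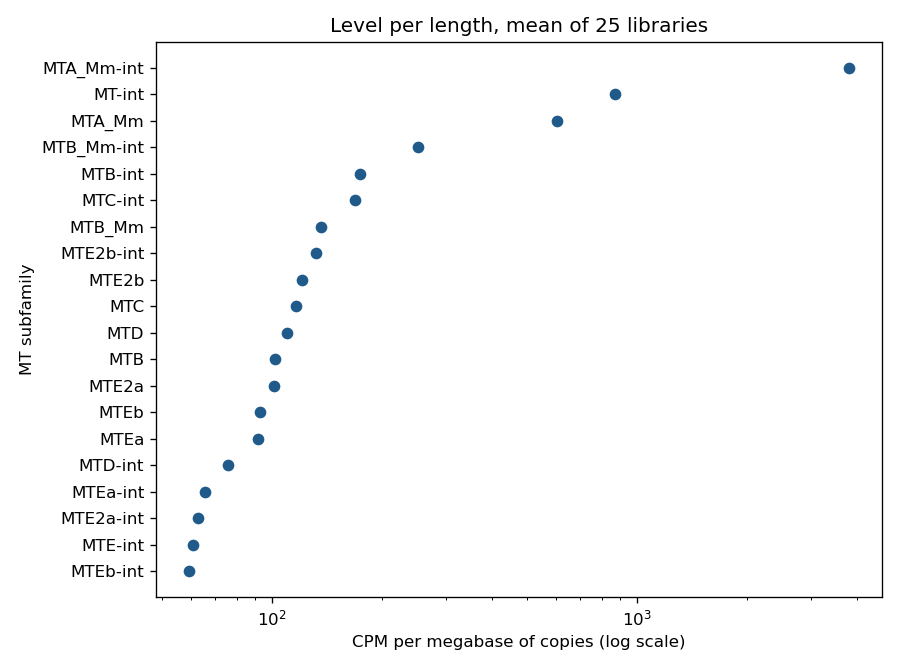
Mean level of each MT subfamily over 25 libraries, in CPM scaled to gene reads and per megabase of summed copy length, on a log axis. MTA_Mm-int stands highest at 3812, and MT-int and MTA_Mm follow at 872 and 603.

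How far the reads were spread over copies differed between subfamilies. The 10 copies with the most reads held 12.5% of the MTA_Mm reads, 14.9% of the MTC reads, 16.4% of the MTD reads and 19.7% of the MTA_Mm-int reads. In the other subfamilies that share ran from 26.3% (MTB) to 84.1% (MTB_Mm-int) and 85.0% (MTE2a-int). MTA_Mm-int copies of 1000 bases or more with an LTR on both sides numbered 1576 and carried 92.9% of the subfamily's reads. The 3997 MTA_Mm LTRs within 20 bases of an internal part carried 70.7% of the LTR reads, and the 9306 other LTRs carried 29.3%. None of the 2550 MTA_Mm-int copies overlapped an annotated exon. Outside annotated genes lay 53.0% of the MTA_Mm-int reads, while 29.8% lay in introns on the opposite strand to the gene and 17.3% in introns on the same strand.

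Summed over all MT copies, the level in IVF libraries was 13703 to 16336 CPM with a median of 13918. It was 21121 and 15343 in SCNT cont, 15709 and 14334 in LatA cont, 13943 and 12572 with TSA, and 15619 and 14641 with A366. RK-701 libraries had 20007, 18786 and 21683, and the highest of the 3 lay above every other library. The others lay below SCNT cont replicate 1, and the lowest also below *Kdm4d* replicate 1. All remaining libraries of the other groups lay lower. With TSA and RK-701 the level was 11862 and 10070, and with TSA and A366 11917 and 10636, below every IVF library and both LatA cont libraries. It was 13092 and 15708 with TSA and UNC0638, 15735 and 14294 with *Kdm3a*, and 19646 and 15422 with *Kdm4d*.

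**Figure D2:**
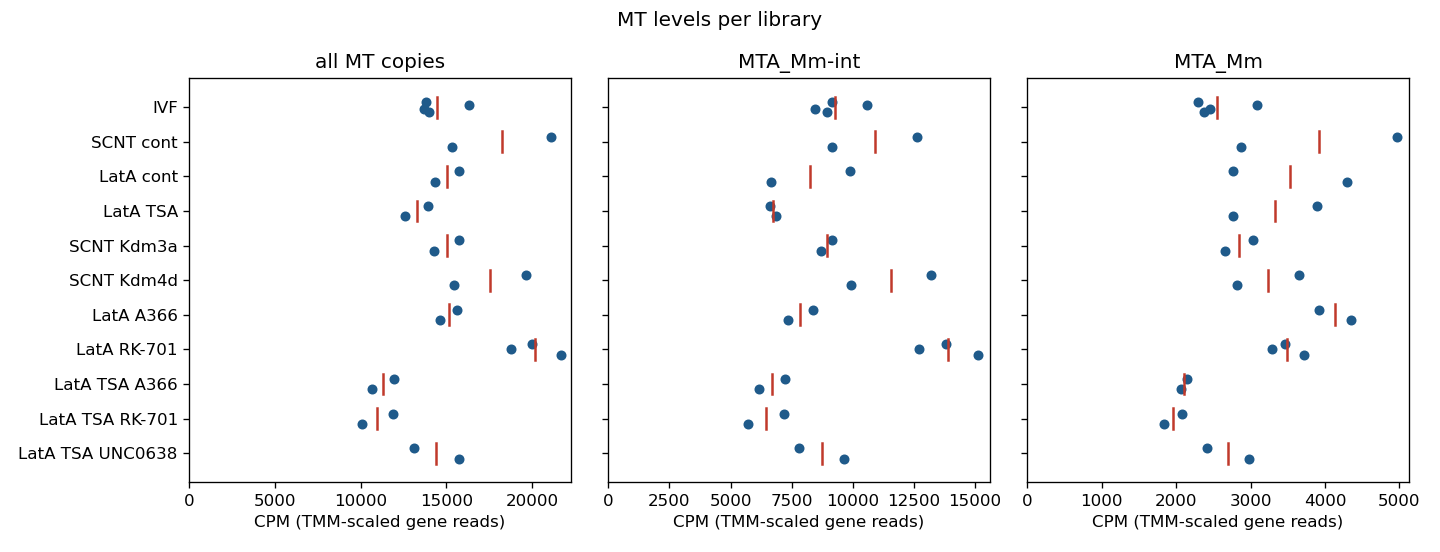
Level per library of all MT copies, MTA_Mm-int and MTA_Mm, in CPM scaled to gene reads with TMM factors, by group. Points are libraries and red bars are group means. The 3 RK-701 libraries of MTA_Mm-int lie between 12702 and 15140, above both LatA cont libraries at 9875 and 6672.

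The comparison of SCNT controls with IVF asked whether MT RNA differed between cloned and fertilized embryos. Against IVF, 8 of the 20 subfamilies were higher and 3 lower in LatA cont, where 21.3% and 6.97% of the 846 repeat subfamilies tested were called higher and lower. In SCNT cont, 10 were higher and 1 lower, against 27.9% and 4.96% of all subfamilies. The median log2 fold change of the MT subfamilies was 0.40 in LatA cont and 0.35 in SCNT cont, and that of all subfamilies was 0.32 and 0.43. MTB rose by 0.60 ± 0.14 (SE) in LatA cont (adjusted p = 0.00214, edgeR's quasi-likelihood test) and by 0.75 ± 0.14 in SCNT cont (adjusted p = 0.000221). Its levels were 136 to 165 in IVF, 196 and 269 in LatA cont, and 270 and 246 in SCNT cont, so that the groups did not overlap. MTB_Mm-int was lower in both, by a log2 fold change of -0.64 ± 0.14 (adjusted p = 0.00106) and -0.48 ± 0.14 (adjusted p = 0.00815). MTA_Mm-int did not pass the test, with -0.17 ± 0.16 in LatA cont and 0.23 ± 0.16 in SCNT cont. MTA_Mm passed in SCNT cont, at 0.62 ± 0.19 (adjusted p = 0.0131), and gave 0.47 ± 0.19 in LatA cont (adjusted p = 0.0671). The 2 comparisons share the IVF libraries. Without LatA cont replicate 2, 3 subfamilies were called in the first, and without SCNT cont replicate 1, 4 in the second. Over copies outside annotated genes, only 1 subfamily was called in the first, and fewer in the second than over all copies. Of the other subfamilies, MT-int, MTC, MTD-int, MTE-int, MTE2a and MTE2b were higher in both comparisons. MTE2b-int passed as higher, and MTB-int and MTE2a-int as lower, in LatA cont, while MTD and MTEb passed as higher in SCNT cont. The direct comparison of the SCNT controls called none of these. MERVL-int, in contrast, fell by 1.26 ± 0.17 in LatA cont and by 0.89 ± 0.17 in SCNT cont on the log2 scale.

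**Figure D3:**
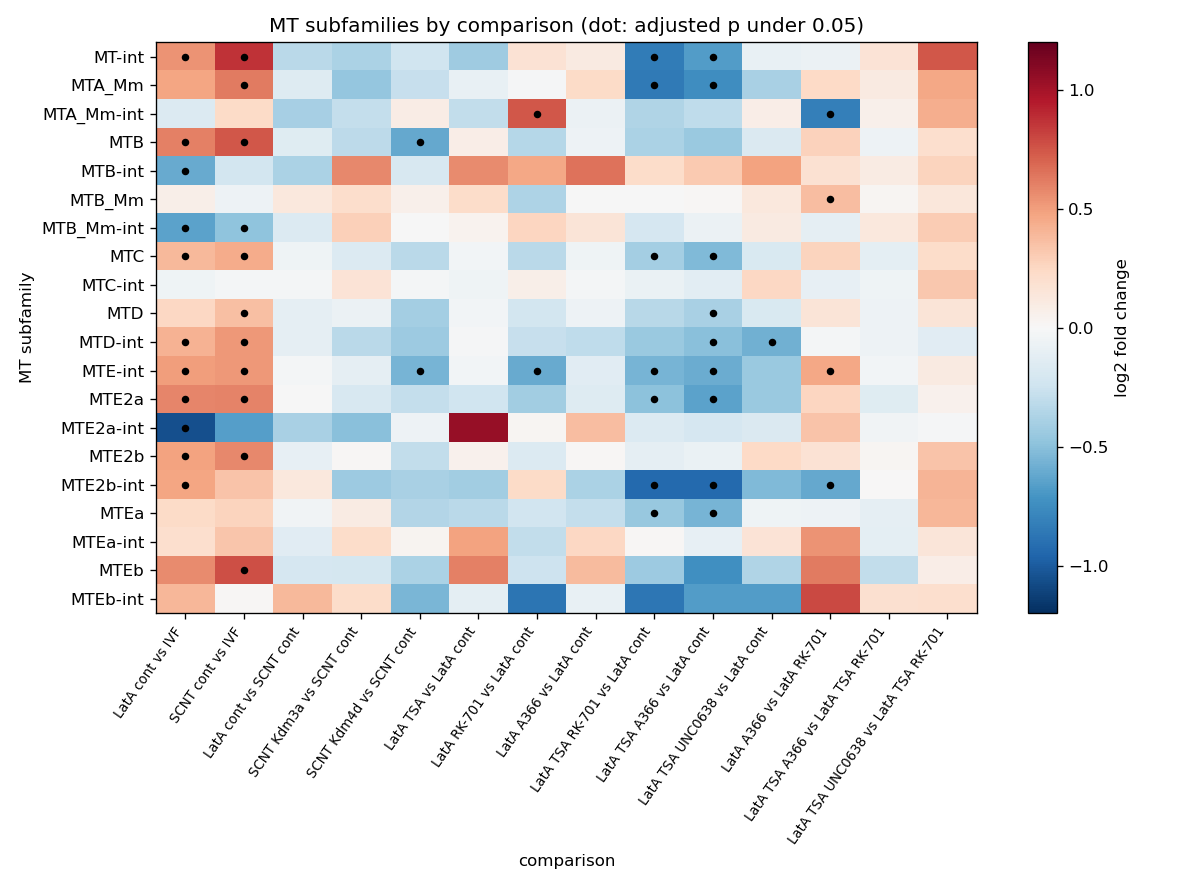
Log2 fold change of each of the 20 MT subfamilies (rows) in 14 comparisons (columns). Black dots mark an adjusted p under 0.05; LatA cont against SCNT cont has none, whereas SCNT cont against IVF has 11.

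Single copies were tested as well. The copies named below were picked for the largest fold changes among those called, so their sizes are those of extremes. The test took 2131 of the 84486 autosomal MT copies, those whose mean reached 10 reads over all libraries. Since 21 libraries were SCNT and 4 IVF, a copy read only in SCNT passed this filter more easily than one read only in IVF. The filter therefore favours calls of higher copies, among MT and among all repeats, and the balance of directions is not a result. Copies named below with at most 1 read in an IVF library passed it only through the SCNT libraries, where they were high. Of the 2131 copies, 278 were higher and 143 lower in LatA cont than in IVF (adjusted p under 0.05 and fold over 2). Of all 24153 repeat copies tested, 11.8% and 9.9% were called. SCNT cont gave 351 higher and 87 lower, against 12.5% and 8.32% of all copies. An MTA_Mm LTR at chr18:61796257-61796652 had no read in any of the 4 IVF libraries and a level of 7.44 to 28.9 in all 21 SCNT libraries. It was at least 53.1-fold higher in LatA cont and at least 74.2-fold higher in SCNT cont, with a floor of 3 reads per library. An MTA_Mm-int copy at chr9:115373784-115374916 likewise had no read in IVF and was at least 8.82-fold and 12.5-fold higher. An MTA_Mm LTR in an intron of *Nckap5* had at most 1 read in an IVF library and was at least 38.7-fold higher in SCNT cont, while *Nckap5* itself had a log2 fold change of 0.20 ± 0.32. In the opposite direction, an adjoining LTR and internal part at chr3:21956104-21956497 and chr3:21956498-21956629 were lower in SCNT cont, with log2 fold changes of -4.72 ± 0.49 and -4.88 ± 0.73. The LTR had levels of 19.9 to 27.3 in IVF, 1.06 and 0.699 in SCNT cont, and 0.535 and 0.611 in LatA cont. The part that the oocyte's strain has in these copies was not tested.

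The most abundant copies behaved differently from one another. The copy with the highest level was an MTA_Mm-int element at chr3:104809379-104810475, in an intron of *Mov10* on the opposite strand. *Mov10* encodes an RNA helicase that restrains retroelements. The copy's level was 397 to 557 in IVF, 472 and 301 in LatA cont, and 637, 606 and 720 with RK-701, all above every other library. With RK-701 against LatA cont the copy had a log2 fold change of 0.76 ± 0.22 and did not pass (adjusted p = 0.0795). *Mov10* itself averaged 2.12 in IVF, 3.75 in SCNT cont, 5.59 in LatA cont and 4.11 with RK-701, where its log2 fold change against LatA cont was -0.44 ± 0.62 (adjusted p = 0.755). An MTC LTR in an intron of *Nlk*, a kinase, was lower in LatA cont (log2 fold change -1.80 ± 0.27, adjusted p = 0.000258) and in SCNT cont (-2.21 ± 0.28, adjusted p = 4.57e-05), with *Nlk* at 0.26 and 0.08. An MTD LTR at chr12:103377922-103378285, outside annotated genes, ranged from 54.4 to 82.4 in IVF and was 0.319 and 6.46 in SCNT cont and 4.51 and 9.58 in LatA cont. With TSA and RK-701 its levels were 41.0 and 44.6, and the log2 fold change against LatA cont was 2.61 ± 0.72, which did not pass (adjusted p = 0.0667).

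Genes known to control retroelements, from a list chosen with earlier results of these data known, were counted beside the MT copies in the same comparisons. Of 16 such genes, 1 was higher and 5 lower in LatA cont than in IVF, where 8.71% and 6.59% of all genes were called, and the counts were again 1 and 5 in SCNT cont, against 8.07% and 6.91%. The lower genes act in the piRNA pathway of germ cells. *Piwil2*, of the same list and pathway, was not called. Its levels were 62.0 to 68.1 in IVF, 53.5 and 57.7 in LatA cont, and 54.4 and 39.2 in SCNT cont. *Mov10l1*, an RNA helicase, had a log2 fold change of -4.21 ± 0.71 in LatA cont and -3.47 ± 0.68 in SCNT cont, and *Ddx4*, the germ cell helicase, of -4.10 ± 0.34 and -3.63 ± 0.33. *Pld6*, *Gtsf1* and *Mael* lay between -1.81 and -2.59. *Ehmt2*, which encodes G9a, was higher, at 1.59 ± 0.21 and 1.63 ± 0.21. Their part in the MT levels was not tested.

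The treatments with G9a inhibitors asked how inhibiting the enzyme bears on the RNA of cloned embryos. With RK-701 alone, MTA_Mm-int rose by 0.75 ± 0.17 on the log2 scale against LatA cont (adjusted p = 0.00792), where 0.709% of all subfamilies were called higher. Its levels were 13830, 12702 and 15140 with RK-701, and 9875 and 6672 in LatA cont. Of the other libraries, *Kdm4d* replicate 1 at 13204 lay within the range of RK-701, and SCNT cont replicate 1 at 12632 just below it. MTE-int was the only MT subfamily called lower (-0.60 ± 0.15, adjusted p = 0.0126), where 8.63% of all subfamilies were called lower. The LTR MTA_Mm had a log2 fold change of -0.02 ± 0.20. With only the compared libraries fitted, MTA_Mm-int gave 0.78 with an adjusted p of 0.0817. When LatA cont replicate 2 was left out, it gave 0.49 with an adjusted p of 0.254, and no MT subfamily was called. Without LatA cont replicate 1, 6 were called (1 higher and 5 lower), and without RK-701 replicate 1 MTA_Mm-int alone was.

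The difference was spread over the copies of MTA_Mm-int. Of 965 copies tested, 865 had a positive log2 fold change with RK-701, with a median of 0.71, while the median of all repeat copies was -0.29. Only 7 of the 965 copies were called higher and 0 lower, against 0.364% and 1.05% of all copies. Of the 965, 291 had an unadjusted p under 0.05 by edgeR, against 4852 of all 24153 copies. The median was 0.73 for full-length copies with both LTRs, 0.69 and 0.65 for copies in introns on the opposite and the same strand, and 0.73 outside genes. Of MTA_Mm LTRs, those next to an internal part had a median of 0.31 and the others -0.38. With A366 against LatA cont, the medians of these LTRs were 0.21 and 0.19. These classes were chosen after values were seen, and their medians are descriptions.

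**Figure D4:**
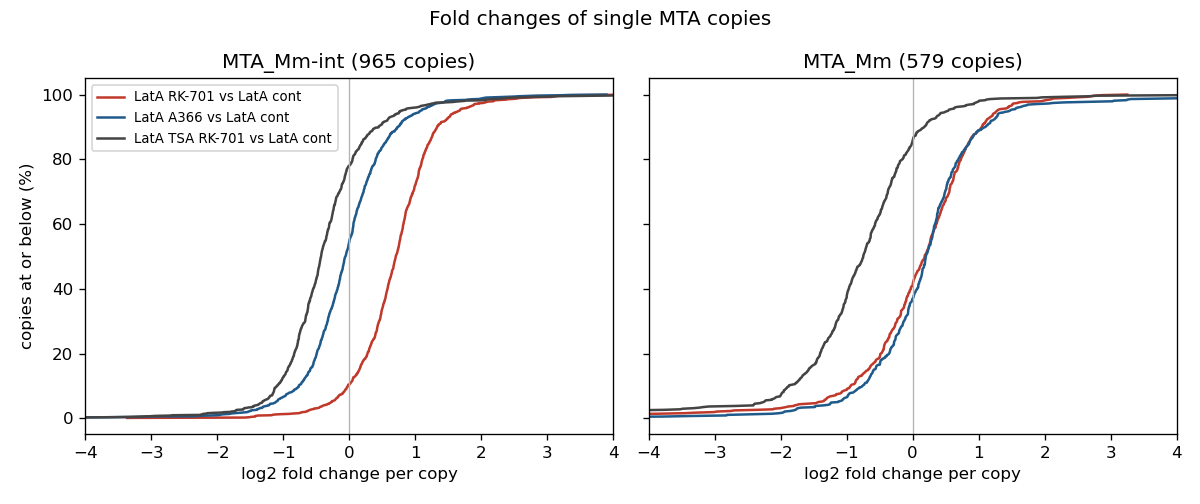
Share of copies (%) at or below each log2 fold change against LatA cont, for 965 MTA_Mm-int and 579 MTA_Mm copies, with RK-701, A366, and TSA with RK-701. The RK-701 line of MTA_Mm-int lies to the right of the others with a median of 0.71. For MTA_Mm the medians with RK-701 and A366 are 0.18 and 0.20.

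RK-701 and A366 inhibit the same enzyme and were given at the same dose and for the same time. The paper lists A366 as inhibiting G9a at a lower concentration than RK-701, so the same dose need not mean equal inhibition. With A366, MTA_Mm-int had levels of 8367 and 7351 and a log2 fold change of -0.07 ± 0.18 against LatA cont. No MT subfamily was called with A366 by edgeR or DESeq2, against 0.827% of all by edgeR. At an unadjusted p under 0.05 by edgeR there was 1, against 79 of all 846. The direct comparison of A366 with RK-701 gave -0.82 (95% interval -1.18 to -0.47, adjusted p = 0.00468 over 60 subfamily comparisons between compounds), and with adjustment within this comparison 4 of the 20 MT subfamilies were called, 2 higher and 2 lower with A366, against 18.9% of all subfamilies. The other 3 were MTB_Mm (0.37, interval 0.11 to 0.63, adjusted p = 0.0408) and MTE-int (0.46, interval 0.16 to 0.77, adjusted p = 0.0323), higher with A366, and MTE2b-int (-0.61, interval -0.97 to -0.25, adjusted p = 0.0171), lower. Over the 60 comparisons their adjusted p-values were 0.0844, 0.0710 and 0.0545. MTE2b-int gave 0.070 over copies outside genes and 0.17 without its 5 leading copies. Of the 965 copies of MTA_Mm-int, 108 were lower and 2 higher with A366, against 1.52% and 6.99% of all copies. Without A366 replicate 1 or RK-701 replicate 1, MTA_Mm-int was 1 of 1 subfamily called. When TSA was also given, A366 and RK-701 differed in MTA_Mm-int by 0.06 (interval -0.32 to 0.44), and UNC0638 and RK-701 by 0.44 (interval 0.05 to 0.82, adjusted p = 0.162). No MT subfamily was called in these 2 comparisons by edgeR, against 0% and 5.2% of all, and DESeq2 called 0 and 3. At an unadjusted p under 0.05 by edgeR there were 0 and 7, against 36 and 167 of all 846.

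RNA that the oocyte had stored was counted in the comparison of RK-701 with LatA cont. Of 18 oocyte-stored transcripts tested, 2 were higher and 0 lower (adjusted p under 0.05 and fold over 2), where 1.73% and 1.61% of all genes were called, and 15 had a positive log2 fold change with RK-701, with a median of 0.53 against -0.01 for all genes. *Btg4*, needed for the clearance of maternal mRNA, rose by 1.26 ± 0.20 (adjusted p = 0.000513), and *Oosp1* by 1.38 ± 0.21 (adjusted p = 0.000398). The summed level of the list was 6057 to 6871 with RK-701, 6324 and 4039 in LatA cont, and 9979 to 11542 in IVF. RK-701 and LatA cont thus overlapped. *Dppa3*, the most abundant of the list, held a large part of these sums. It had 2854 to 3294 with RK-701 and 4563 and 2621 in LatA cont (log2 fold change -0.20 ± 0.18, adjusted p = 0.590). The overlap of the sums therefore says little of the other transcripts. The 8 cumulus cell markers tested summed to 11.1 to 15.2 with RK-701 and to 12.4 and 17.1 in LatA cont. In A366 against RK-701 the median of the 18 stored transcripts was -0.80, against -0.03 for all genes, and 4 were positive. Against IVF, 0 were higher and 7 lower in LatA cont (median -0.92), where 8.71% and 6.59% of all genes were called. In SCNT cont, 0 were higher and 8 lower (median -1.15), against 8.07% and 6.91%. The part of stored RNA in the MT results was not tested. In pooled embryos, more RNA per embryo and more embryos that hold it cannot be told apart.

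With TSA alone, with TSA and RK-701 and with TSA and A366, the summed MT level of each library lay below both LatA cont libraries, while the libraries with TSA and UNC0638 overlapped them. Of the 20 subfamilies, 7 were lower with TSA and RK-701, where 18.9% of all subfamilies were, and 9 with TSA and A366, against 21%. When only the compared libraries were fitted, none of these calls remained, with 0 subfamilies called for each combination of TSA with an inhibitor against LatA cont. MTA_Mm fell by 0.85 ± 0.22 (adjusted p = 0.0108) and by 0.75 ± 0.22 (adjusted p = 0.0196) on the log2 scale. MTE2b-int fell by 0.94 ± 0.19 and by 0.93 ± 0.19. The median of the MT subfamilies was -0.39 and -0.47, close to that of all subfamilies at -0.41 and -0.47. With TSA and UNC0638, MTD-int alone was lower (-0.58 ± 0.17), against 5.56% of all subfamilies. With TSA alone, no subfamily of the 20 was called by edgeR or DESeq2, against 0.473% of all by edgeR. At an unadjusted p under 0.05 by edgeR there were 5 of the 20, against 84 of all 846. The interaction of TSA with RK-701 asks whether the RK-701 effect differed when TSA was present. It called 0 MT subfamilies in edgeR and in DESeq2, against 0% of all. At an unadjusted p under 0.05 by edgeR there were 7 of the 20, against 85 of all 846. MTA_Mm-int had levels of 6596 and 6863 with TSA, and 7204 and 5708 with TSA and RK-701. Of its 965 copies tested, 106 had a positive interaction and 0 were called. Their median was -0.82, against 0.005 for all repeat copies. Without LatA cont replicate 2, 1 subfamily was lower in each of the combinations with RK-701 and A366. Without TSA and RK-701 replicate 1 or 2, 4 and 1 were lower, without TSA and A366 replicate 1 or 2, 4 and 0, and the call with UNC0638 was lost without either of its libraries or LatA cont replicate 1.

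Injected *Kdm4d* mRNA left 2 subfamilies lower than in SCNT cont, where 9.46% of all were lower. MTB had levels of 168 and 168 against 270 and 246 (log2 fold change -0.62 ± 0.16, adjusted p = 0.0224), and MTE-int 45.6 and 43.8 against 68.5 and 63.1 (-0.56 ± 0.16, adjusted p = 0.0333). Neither passed when any one library of the 2 groups was left out. With *Kdm3a* mRNA, no MT subfamily was called by edgeR or DESeq2, against 4.49% of all by edgeR. At an unadjusted p under 0.05 by edgeR there were 3, against 146 of all 846. Between LatA cont and SCNT cont no MT subfamily was called by edgeR or DESeq2, and 0% of all by edgeR. At an unadjusted p under 0.05 by edgeR there was 1, against 59 of all 846.

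*Adh5*, whose window is printed above, encodes an alcohol dehydrogenase that clears formaldehyde. It is 1 of the 4 windows printed, and these were chosen after values were seen. Its level was 259 to 356 in IVF, 92.7 and 105 in SCNT cont, 135 and 80.1 in LatA cont, and 455, 316 and 376 with RK-701. It rose by 1.83 ± 0.24 with RK-701 against LatA cont (adjusted p = 0.000123) and was called in the interaction with TSA (log2 -1.94 ± 0.35, adjusted p = 0.00581). The MTB_Mm copy at its RefSeq start had 6 to 18 reads in IVF libraries and 1 and 1 in SCNT cont. It had 7 and 0 in LatA cont, and 13, 7 and 13 with RK-701. These counts are not scaled to depth. The copy's mean was below 10 reads, so it was not tested. Summed over all its copies, MTB_Mm had 127, 155 and 144 with RK-701 and 170 and 198 in LatA cont, and was not called. *Slx4ip* had 70.2 to 87.7 with RK-701 and 89.7 and 85.6 in LatA cont, with a log2 fold change of -0.15 ± 0.19. Gm13777 had 3.60, 5.01 and 6.32 with RK-701 and 7.13 and 6.73 in LatA cont, with -0.48 ± 0.34 (adjusted p = 0.457).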

How the data were processed

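The authors counted read pairs, not reads, on genes and on each repeat copy with featureCounts 1.6.2, without strand, after Trimmomatic and STAR alignment to mm10 (tools as named in the submitters' processing notes). The deposited table holds whole counts. Only uniquely placed pairs that overlap 1 feature were counted, so young, near-identical MT copies are undercounted and a pair spanning an LTR and its internal part is lost.

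Counts were summed by subfamily over autosomal copies and tested with edgeR 4.0.16 in R 4.3.3 (quasi-likelihood, 11 groups, 25 libraries). Library size was the reads on autosomal genes times TMM factors, which lay between 0.886 and 1.2. Gene reads ranged from 6662727 to 21188688 per library. The test covered 846 subfamilies (mean of 1 read or more) and 24153 copies (mean of 10 or more), with Benjamini-Hochberg adjustment at 0.05, and for copies a fold over 2. Subfamily levels are CPM over scaled gene reads. Bounds cover counting error only. The labels do not say that libraries came from separate experiments, so p-values measure the spread between pools. Gene models were GENCODE M21. The steps were tested on simulated data.

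Named copies were the 2 with the highest level for each of MTA to MTE and, in 5 comparisons, up to 3 called copies per direction, provided that no library of the group where the copy was high fell below 20 reads. The members and lists were chosen with earlier results of these data known. Alternatives were other size factors, other filters, sex chromosomes, DESeq2 1.42.0, only the compared libraries, a replicate block, copies outside genes, leading copies left out and each library left out.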

Additional observations from a re-analysis of the deposited data

Results flagged for a closer look

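Of the IVF libraries, 1 had a level of all MT copies of 16336, above the other 3 at 13703 to 14010. In IVF, 1 library had 171 for MTC-int, below the others at 201 to 206, and 1 had 41.1 for MTEb, above the others at 37.8 to 38.0. In all, 21 such checks were made, and chance flags about 1 in 20. The checks are not independent, since the sum of all MT copies holds the subfamilies.

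The interaction of A366 with TSA was -1.72 for MTEb on the log2 scale. It leaned negative for repeats at large, with a median of -0.49 over all 846 subfamilies. Of the 20 MT subfamilies 18 were negative, with 6 at an unadjusted p under 0.05 by edgeR, against 222 of all 846. With only the compared libraries fitted, 0 MT subfamilies were called. MTEb levels were 96.1 and 53.6 with A366, 109 and 65.8 with TSA, 40.1 and 29.0 with both, and 55.9 and 58.9 in LatA cont, so that the A366 and TSA libraries differed widely within their groups.

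MT copies on the X chromosome, which the comparisons left out, had a mean level of 653 over all libraries, from 419 to 964.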

How the results depend on the processing

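No paired design was used: same-numbered libraries did not deviate together (correlations -0.291 to 0.140 over 55 pairs of groups, 6 above 0.1). With a replicate block, the count of called MT subfamilies was 7 for LatA cont against IVF, 1 for *Kdm4d* and 2 for A366 against RK-701.

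Written in the order SCNT cont against IVF, *Kdm4d*, RK-701, TSA and RK-701, TSA and A366, TSA and UNC0638, and A366 against RK-701, a required fold over 2 left 0 in each, and 1, lower, for LatA cont against IVF, where the main count leaned higher. Copies outside genes gave 6, 1, 1, 4, 3, 0 and 1, and 1 for LatA cont against IVF and 1 for TSA with UNC0638 against TSA with RK-701. Only the compared libraries gave 4 for *Kdm4d* and for UNC0638 against RK-701 with TSA, and 0 for RK-701, each combination with TSA against LatA cont and the A366 interaction. DESeq2 gave 8 for *Kdm4d*, 5 for RK-701, 4 for TSA with UNC0638, 3 for UNC0638 against RK-701 with TSA and 4 for the A366 interaction. RLE factors gave 6, 4 and 4 for *Kdm4d*, RK-701 and TSA with UNC0638. Without the 5 leading copies of each subfamily, counts were 10 for *Kdm4d*, 4 for RK-701, 14 for TSA with RK-701, 2 for TSA with UNC0638 and 2 for A366 against RK-701. Library size from all counted reads gave 1 for *Kdm3a*, 1 for *Kdm4d* and 2 for A366 against RK-701. No filter gave 1 for *Kdm4d*, 0 for TSA with UNC0638, 1 for UNC0638 against RK-701 with TSA, 1 for the RK-701 interaction and 4 for the A366 interaction; 10 reads in 2 libraries gave 3 for the last, and sex chromosomes 1 for *Kdm4d*, 0 for TSA with UNC0638 and 2 for the A366 interaction.

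Leaving out each library gave 3 to 11 for LatA cont against IVF, 4 to 11 for SCNT cont against IVF, 0 to 0 for *Kdm4d*, 0 to 6 for RK-701, 1 to 8 for TSA with RK-701, 0 to 8 for TSA with A366, 0 to 1 for TSA with UNC0638 and 1 to 4 for A366 against RK-701. For copies, a mean of at least 5 reads gave 9 for *Kdm3a*, 5 for *Kdm4d*, 1 for TSA, 8 for RK-701, 2 for A366, 9 for TSA with RK-701, 17 for TSA with UNC0638, 98 for A366 against RK-701, 0 for the A366 interaction, and 21 for TSA with A366, where higher and lower changed order.

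These log2 fold changes reversed: MTE2a-int in LatA cont against IVF, 0.48 outside genes and 0.26 without the leading copies, and MTE2b-int in A366 against RK-701, 0.070 and 0.17. MTA_Mm-int with RK-701 lost its call with only the compared libraries (0.78, adjusted p = 0.0817). The cause was not tested. The other results include the summed MT level of each group relative to IVF. Among their alternatives, 578 kept their call or their level, and 241 lost their call. In 1, a summed level moved by more than the SD of its group.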
